A study of Mus musculus with 6 samples.

Results

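The broad mSin3A domains are long stretches of the mouse genome. In each, all 4 chromatin immunoprecipitation (ChIP-seq) libraries of a study of CD8 T cells had an enriched part, not always the same one. Each library came with the authors' list of enriched regions, called islands. Islands from any of the 4 lists were joined where they overlapped or abutted, and a merged region was kept when every list had an island in it and when its span, from the first to the last base, reached 10 kb. This rule chose 1952 of 23510 merged regions (8.30%), and 1952 of the 5637 regions called in all 4 libraries (34.6%). The remaining 3685 regions called in all 4 libraries spanned less and are called compact regions here. The members were chosen by their calls and spans, so those values, and read numbers that move with them, are given as descriptions with no test.

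mSin3A is the scaffold of a co-repressor complex that carries the histone deacetylases HDAC1 and HDAC2, which remove acetyl groups from histone tails. The scaffold does not read DNA sequence itself and is brought to chromatin by transcription factors and by subunits that recognise modified histones. Tcf1 and Lef1 are related DNA-binding proteins with an HMG box, needed in T cell development, that can activate or repress their targets, depending on the cofactors they recruit. A broad domain in a ChIP-seq experiment is a long run of neighbouring windows with more reads than background, as opposed to the narrow peak of a factor bound at a single site.

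The cells were CD8+ T cells with high surface TCRbeta, sorted from the spleen of wild-type (WT) mice or of mice lacking both Tcf1 and Lef1 (Tcf1-/-Lef1-/-, here "deficient"). Both genes had been deleted with CD4-Cre, a recombinase driven by Cd4 sequences. In T cell development it becomes active in the thymus, before T cells mature. How far the sorted cells had lost the factors was not checked here. Each genotype was profiled once in a condition 1 and once in a condition 2. What distinguishes the conditions is not in the labels. They are kept apart here, which leaves 1 library for each combination. The labels give no age, sex or number of mice. Background under the domains is unknown, as the 2 inputs were not analysed here. The lists held 13397 and 11151 islands for WT and 15954 and 13556 for deficient cells, in conditions 1 and 2, with between 1792952 and 1917097 island reads per library. In all sentences below, paired values are for condition 1 and then condition 2. No genes were assigned and no marker genes of CD8 T cells or of other cells could be checked, because the islands are on the build mm9 and the annotation at hand is on another build. Domains are therefore named by their mm9 position.

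Most domains were broad as a union of libraries and much narrower in what the libraries had in common. The median span was 15399 bp, with 12199 and 21199 bp at the 25th and 75th percentiles, and the widest domain reached 111199 bp. In 531 domains (27.2%) the span was 20 kb or more, and in 45 (2.31%) it was 50 kb or more. Summed over all 1952 domains the span was 36.6 Mb. Of these bases, 35.2% were called in all 4 libraries, 20.4% in exactly 3, 20.7% in exactly 2 and 23.7% in 1 library alone. The median domain had 4998 bp in common to all 4 libraries, or 32.1% of its span, and only 324 domains (16.6%) had 10 kb or more in common. At the other end, 99 domains (5.07%) had no single base that all 4 libraries called, although each library had an island within the span. Compact regions overlapped more closely: the median common part was 41.2% of the span, and 42 of 3685 (1.14%) had no common base.

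The calls met in the middle of a domain and parted at its ends. The span is a union of islands, so each end lies where the farthest-reaching list stops. Fewer calls at the ends therefore follow from the merging. In the middle 20% of the span, the WT libraries had called 78.3% and 83.2% of the domains and the deficient libraries 74.2% and 78.2%. In the outer 10% at each end, these shares were 41.5% and 45.9% for WT and 34.9% and 39.8% for deficient cells. In 1302 domains (66.7%) no single list reached both ends, so the span was set by different libraries at its left and right edges. Both deficient libraries lay below the WT library of the same condition at the middle and at the ends.

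**Figure D1:**
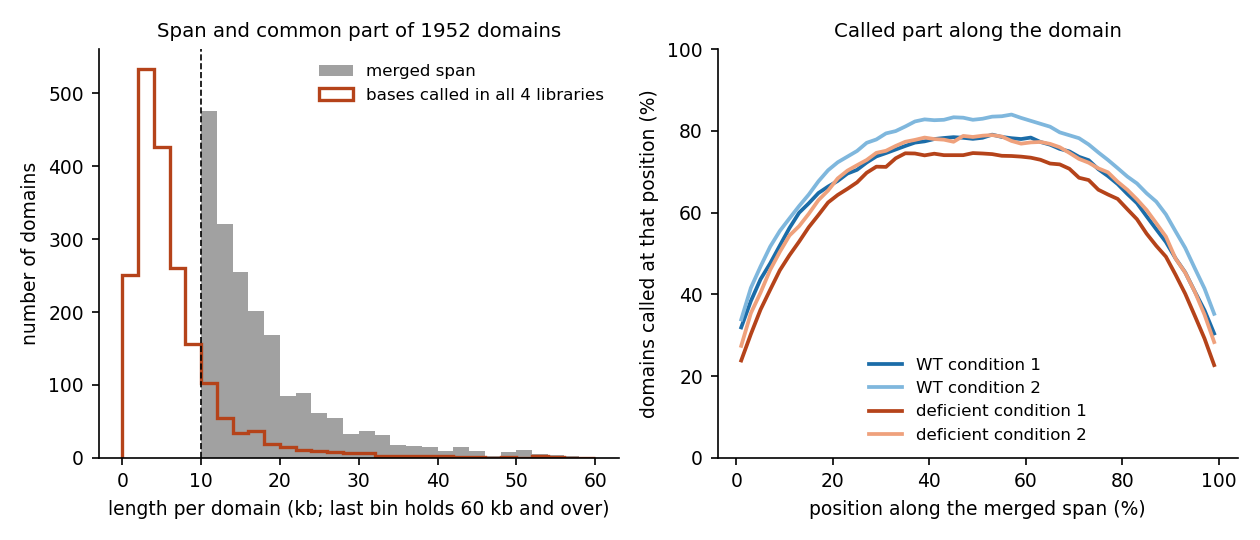
Left, histogram of merged span (grey) and of bases called in all 4 libraries (red line) over the 1952 domains, in kb, with the 10 kb limit dashed. Right, share of domains called at each position along the merged span, one line per library. All domains lie right of 10 kb by span, but only 324 do so by common bases, and calls are fewer towards both ends in every library. The fewer calls at the ends follow from taking the span as a union of the lists.

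The lower limit cut through a continuum of regions. The 3 members just inside it, all of 10199 bp, began on chromosome 1 at 58472401, 74281001 and 88044401, and had 3598, 4199 and 3599 bp called in all 4 libraries. The 3 regions just outside, all of 9999 bp, began on chromosome 1 at 71143801, 94361201 and 130496001, and had 1799, 5998 and 5198 bp in common. Reads per library overlapped between the sets, at 110 to 309 inside and 158 to 281 outside.

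The widest domain lay on chromosome 8, 74782801 to 74893999. It was called as 6 and 5 islands in WT and 7 and 5 islands in deficient cells, and held 2068 and 2935 versus 2085 and 2507 reads. The denser part lay right of its centre: the island of WT condition 2 that began at 74839201 had 1744 reads in 51399 bp, and the islands of the other libraries that began between 74837601 and 74840001 had 698 to 742 reads in 14199 to 18599 bp. The left part was called in different pieces by each library, from 5 islands of 2599 to 5799 bp in deficient condition 1 to 1 of 4599 bp and a single island of 40599 bp in deficient condition 2, at 19.5 to 27.5 reads per kb.

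Other domains of 70 kb or more were built in the same way, from several islands in most libraries. Chromosome 7, 132693001 to 132787799, had 2317 and 2187 reads in the WT libraries and 2175 and 1661 in the deficient ones. Chromosome 17, 35293401 to 35387999, was the domain in the most pieces, with 5 and 6 islands in the WT libraries and 8 and 7 in the deficient ones, and held 2642 and 2683 versus 2303 and 2206 reads. On chromosome 15, 77597601 to 77682599 had 2469 and 2182 versus 1697 and 1367 reads. In these 3 domains both deficient libraries were below both WT libraries in reads, by margins that a single library per group cannot set against any spread.

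In 4 of the next 6 domains both deficient libraries were again below both WT libraries in reads, and in 2 the genotypes overlapped. Chromosome 2, 166429801 to 166509799, had 1601 and 1740 reads in the WT libraries and 1344 and 1359 in the deficient ones. Chromosome 11, 98959401 to 99038799, had 2063 and 2166 versus 1199 and 1238 reads, the largest relative gap among the 10 widest domains. Chromosome 11, 117149201 to 117227999, had 2010 and 1315 versus 1465 and 1584 reads, and here the genotypes overlapped. Chromosome 13, 51825001 to 51900599, had 1754 and 1846 versus 1317 and 1655 reads, and chromosome 4, 149014801 to 149089399, had 1701 and 1880 versus 1391 and 1384 reads. Both belong to the former kind. Chromosome 10, 80111801 to 80182599, had 1559 and 1943 versus 1788 and 1576 reads, with the genotypes again overlapping.

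The 2 domains with the most bases called in every library were nearly level in density between the genotypes, apart from 1 deficient library. Chromosome 11, 52060401 to 52130599, had 54392 of its 70199 bp (77.5%) in common, with a density of 35.2 and 38.3 reads per kb for WT and 37.2 and 37.7 for deficient cells. It was nevertheless called as 2 and 2 islands in WT and as 7 and 4 in deficient cells, with almost the same called length of 63998 and 65398 bp versus 63793 and 64796 bp. Chromosome X, 92118601 to 92178599, had 53598 bp in common (89.3%), with a single run of 40799 bp called in all 4 libraries from 92122201 to 92162999. Its density was 33.0 and 33.8 reads per kb for WT and 33.8 and 39.3 for deficient cells. The other 3 of these 5 domains were the 3 widest ones, on chromosomes 17, 8 and 7, with 53187, 49392 and 44795 bp in common.

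In 680 domains (34.8%) every library called a single island. The widest of these was chromosome 5, 124450401 to 124492799, with islands of 35999 and 38799 bp in WT and 25999 and 38199 bp in deficient cells and 1152 and 1241 versus 801 and 1047 reads. Chromosome 6, 47597801 to 47637199, was called almost identically by all libraries, with 94.9% of its span in common, the highest share of any domain. Chromosome 7, 25145601 to 25174999, had 83.7% in common and held 809 and 945 versus 828 and 841 reads. Chromosome 10, 80741401 to 80773599, and chromosome 17, 6935201 to 6964199, were shorter in both deficient libraries. The former was called over 25599 and 25599 bp in WT and 18199 and 15799 bp in deficient cells, and the latter over 22599 and 20799 versus 13599 and 11999 bp.

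**Figure D2:**
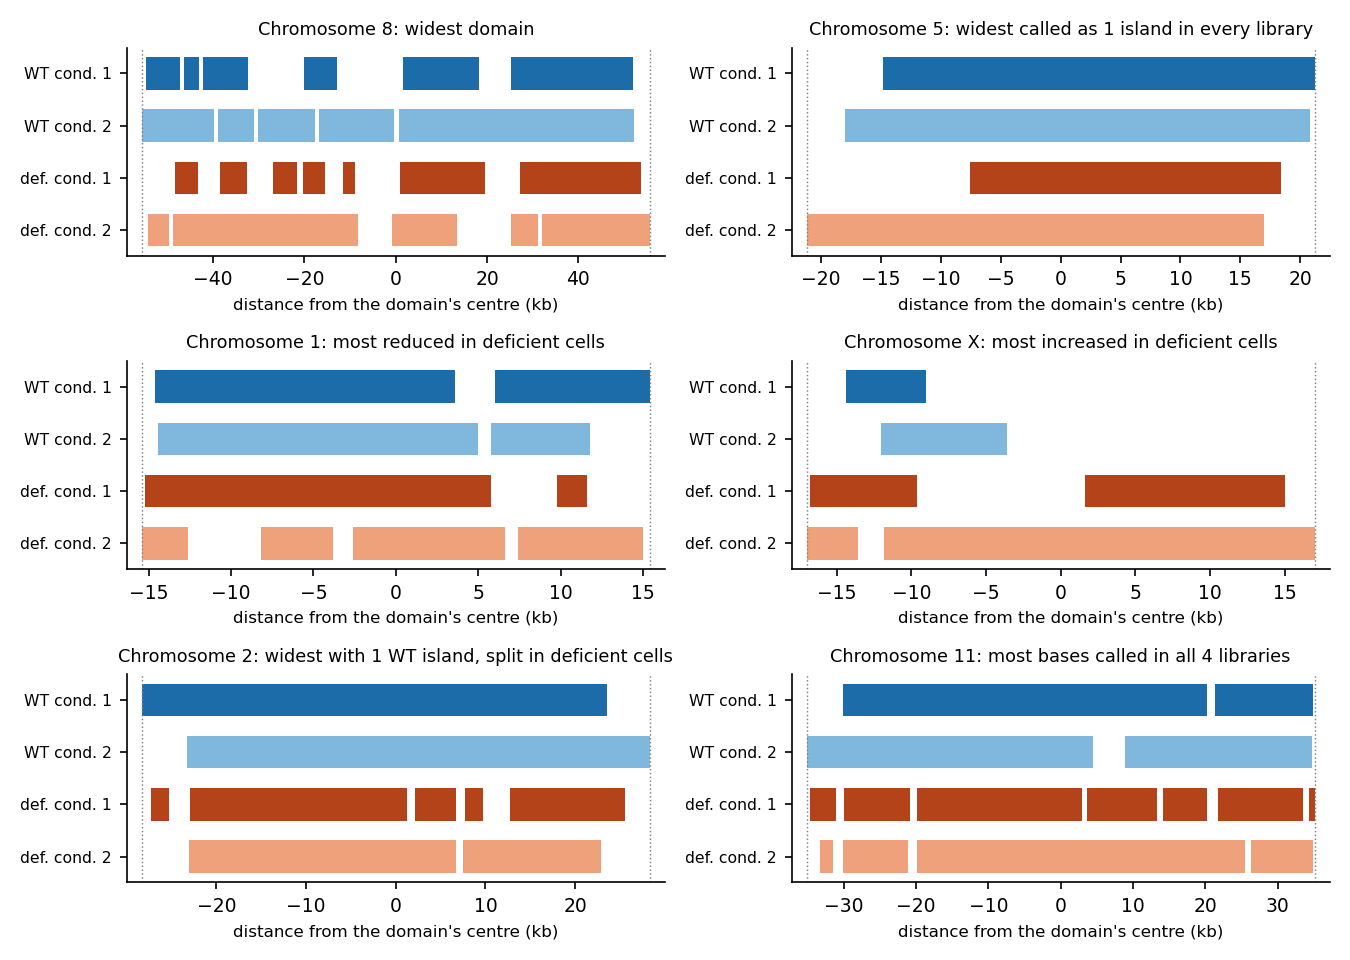
Islands of 6 domains in the 4 libraries (blue, WT; red, deficient; darker, condition 1), drawn to scale as distance in kb from the domain's centre, with the ends of the merged span dotted. The chromosome 11 and chromosome 2 domains are covered to similar extents in all libraries but in more pieces in deficient cells, while the chromosome X domain (72973801 to 73007799) is covered mostly by the deficient libraries.

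Domains were called in more pieces in deficient than in WT cells. The mean number of islands per domain was 1.44 and 1.32 in the WT libraries and 1.66 and 1.47 in the deficient ones, so each deficient library was above the WT library of its condition. The library had a single island, of any length, in 66.8% and 74.4% of the domains in WT and in 54.3% and 64.5% in deficient cells. More islands in deficient than in WT cells in both conditions were found in 213 domains (10.9%), and fewer in both conditions in 47 (2.41%). Over all 5637 regions called in all 4 libraries these shares were 4.06% and 0.887%. The latter include the compact regions, of which 92.2% were 1 island in every library. Domains of 1 island in both WT libraries and 2 or more in both deficient libraries numbered 136 (6.97%), versus 31 (1.59%) with the reverse pattern. Over all 5637 regions these patterns made up 2.7% and 0.603%. The deficient lists were also longer overall. With every list cut to its 11151 islands of highest read number, the rule chose 1896 domains, of which 150 had more islands in deficient cells in both conditions and 49 had fewer. The WT condition 1 library, with 1.44 islands per domain, lay close to the deficient condition 2 library, with 1.47.

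The 3 widest domains that were 1 island in WT and split in deficient cells differed in length in opposite ways. Chromosome 2, 172837601 to 172894199, was a single island of 51799 and 51599 bp in WT and 5 and 2 islands that summed to 45595 and 45198 bp in deficient cells. Its reads, 1525 and 1576 versus 1326 and 1334, and its densities, 29.4 and 30.5 versus 29.1 and 29.5 reads per kb, were close. Chromosome 7, 71044201 to 71092599, went the other way in length, with 1 island of 19999 and 26399 bp in WT and 5 and 4 islands summing to 42195 and 35996 bp in deficient cells. Chromosome 9, 114324401 to 114364399, likewise had 13599 and 11799 bp in WT versus 32196 and 18797 bp. A split domain was thus not always a shorter one. Among the reverse cases, chromosome 11, 96973801 to 97015799, was 2 islands in both WT libraries and 1 in both deficient libraries, which called 7199 and 33399 bp, one below and one above both WT lengths (21998 and 33198 bp).

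The called length of the domains was shorter in deficient cells. The WT libraries called a median of 68.1% and 73.5% of the span and the deficient libraries 61.8% and 67.2%. Summed over the domains, the called length was 24.6 and 25.8 Mb in WT and 22.9 and 24.4 Mb in deficient cells, ratios of 0.927 and 0.944. Compact regions gave ratios of 0.943 and 0.938, so the difference was of like size there. Called length was shorter in deficient cells in both conditions in 656 domains (33.6%) and longer in both in 373 (19.1%), beside 29% and 17.8% of all 5637 regions. A difference of at least 1.5-fold in both conditions was seen in 139 domains for shorter and 91 for longer length (7.12% and 4.66%), beside 6.32% and 3.62% of all 5637 regions.

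Single islands of 10 kb or more were also more often found in WT. They occurred in 803 and 941 domains in WT and in 574 and 777 domains in deficient cells. The whole lists had the same order, with 1086 and 1184 such islands in WT and 741 and 1001 in deficient cells. All 4 libraries had such an island in 264 domains (13.5%), 3 libraries in 240, 2 in 322, 1 in 675 and none in 451 (23.1%), where the span came from shorter islands laid end to end. Both WT libraries and neither deficient library had one in 89 domains (4.56%), and both deficient and neither WT library in 28 (1.43%). An island of 10 kb meets the span limit by itself, so these domains could be chosen through the genotype that held it. Compact regions span less than 10 kb and cannot hold such an island. The shares of all 5637 regions, 1.58% and 0.497%, therefore count the same domains and are no comparison. The conditions differed by a similar amount. Both condition 2 libraries and neither condition 1 library had one in 83 domains (4.25%), and the reverse held in 28 (1.43%). Again the same domains made up 1.47% and 0.497% of all 5637 regions. The single most frequent pattern after none was a wide island in WT condition 2 alone, in 269 domains. Condition 2 libraries also called domains in fewer pieces. Islands were more numerous in condition 1 in both genotypes in 135 domains (6.92%) and less numerous in 37 (1.90%). Over all 5637 regions these shares were 2.5% and 0.674%. Called length was longer in condition 2 in both genotypes in 603 domains (30.9%) and shorter in 380 (19.5%), beside 29.3% and 16.2% of all 5637 regions. Reads were at least 1.5-fold more in condition 2 in both genotypes in 39 domains (2.00%) and fewer in 40 (2.05%). The shares of all 5637 regions were 1.17% and 1.1%.

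The number of pieces went with span, which partly follows from the merging, as a span is a union of islands. The 942 domains of 10 to 15 kb had a mean of 1.17 and 1.12 islands in the WT libraries and 1.27 and 1.18 in the deficient ones. The 45 domains of 50 kb or more had 3.18 and 2.87 in WT, and 4.40 and 3.58 in deficient cells, where a median of 67.5% and 75.1% of the span was called, below the 84.2% and 83.8% of WT. The part called in all 4 libraries was a median of 30.8% of the span in the former set and 47.3% in the latter.

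**Figure D3:**
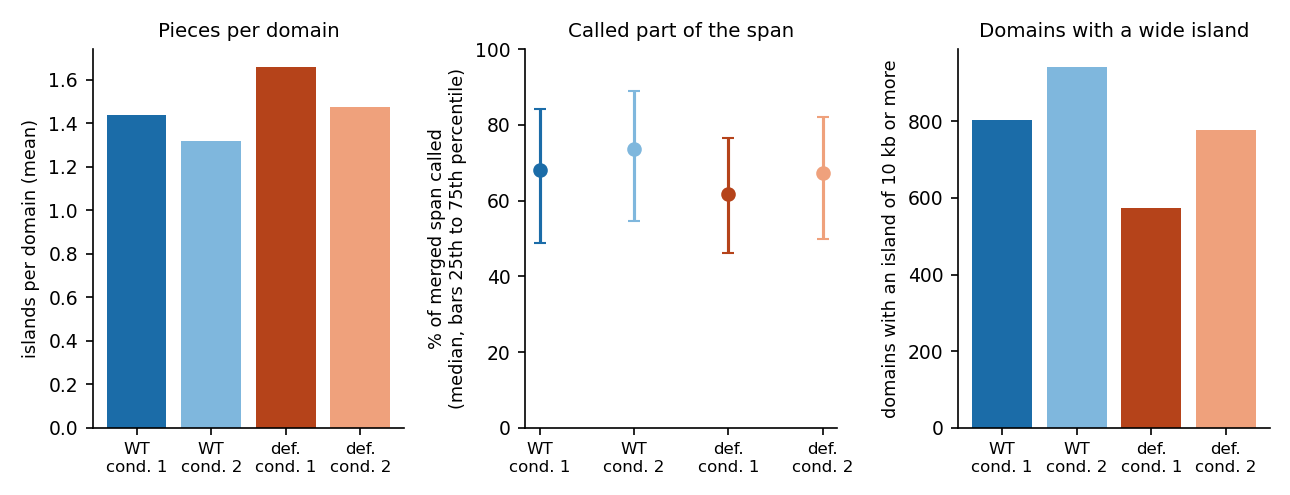
Mean islands per domain, median share of the merged span called (bars, 25th to 75th percentile over domains) and number of domains with an island of 10 kb or more, for the 4 libraries over the 1952 domains. Within each condition the deficient library has more pieces (1.66 versus 1.44 and 1.47 versus 1.32), a smaller called share and fewer wide islands than the WT library.

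The broad domains held a large part of all mSin3A island reads, and a larger part in WT than in deficient cells. They took 39.3% and 43.3% of the island reads in the WT libraries and 35.8% and 37.8% in the deficient libraries, from 38.0% and 42.2% of the called bases in the WT libraries and 34.9% and 37.2% in the deficient ones. The shares of reads and of bases were thus close in each library, and the WT and deficient ranges did not overlap. Compact regions had the same order, with 27.5% and 30.9% of the island reads in WT, 26.1% and 27.4% in deficient cells, so it was not particular to the broad domains. The median domain held 284 and 310 reads in the WT libraries and 271 and 292.5 in the deficient ones, with single domains ranging from 20 to 7524 reads over the 4 libraries.

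Read density, the number of reads per kb of called length, was nearly the same in all libraries. The median was 28.7 and 29.1 reads per kb of called length in the WT libraries and 28.8 and 28.7 in the deficient ones. Compact regions were denser, with medians of 35.9 and 35.8 in WT, 36.8 and 36.5 in deficient cells. Density was similar at all spans: the 942 domains of 10 to 15 kb had medians of 28.9 to 29.6 reads per kb in the 4 libraries, and the 45 domains of 50 kb or more had 29.0 to 30.5. Wider domains therefore held more reads by length and not by density.

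A few domains stood far above this level. Only 19 of 1952 reached 40 reads per kb in every library, and 3 reached 100. These 3 were chromosome X, 166409601 to 166447199, with 174 and 163 reads per kb for WT and 192 and 200.1 for deficient cells, and a pair of neighbours on chromosome 6. On chromosome X the deficient libraries called the whole span of 37599 bp and the WT libraries 22197 and 23598 bp, and reads numbered 3865 and 3835 in WT versus 7206 and 7524. The first neighbour, 47597801 to 47637199, had 159.7 and 167 versus 166 and 169 reads per kb, and the second, 47687001 to 47729799, had 157 and 154 versus 156 and 159. How far an input would show the same densities was not tested. All 3 were dense in every library, and the chromosome 6 pair was level between genotypes.

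The next densest domains were a pair on chromosome 8. At 20014001 to 20033199 the density was 74.8 and 70.4 reads per kb for WT and 60.2 and 58.2 for deficient cells, and at 19882601 to 19902399 it was 68.6 and 59.8 versus 53.0 and 51.7. Both were less dense in the deficient libraries, but their reads overlapped between genotypes, at 883 and 1113 versus 927 and 1105 in the first and 810 and 1136 versus 806 and 1024 in the second. The remaining 5 of the 10 densest were on chromosome 11, 74639401 to 74656999 (lowest library 45.9 reads per kb), chromosome 5, 33991401 to 34004199 (45.0) and 138606201 to 138616599 (44.1), and chromosome 9, 20445201 to 20461199 (44.6) and 108951001 to 108966999 (43.5). Reads in these 5 were close in all libraries, with centred log2 ratios between -0.19 and 0.16.

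Read numbers in deficient relative to WT cells were compared within each condition as log2 ratios. They were centred on the median of all 5637 regions called in all 4 libraries, which was -0.06 and -0.09. The median centred ratio of the domains was -0.05 and -0.03, and that of the compact regions 0.02 and 0.02. The ratios spread more in domains than in compact regions, with standard deviations of 0.62 and 0.66 versus 0.42 and 0.42. By density the order was the opposite, with 0.33 and 0.32 in domains versus 0.44 and 0.43. The larger spread in reads went with called length. Across the 1952 domains, the log2 ratio of reads correlated with that of called length at r = 0.93 and 0.94. Reads were counted only inside called islands, and the rule used calls and spans, so a high correlation is partly built in. Domains share libraries in this correlation and are not independent replicates.

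In both conditions, 54 domains (2.77%) had more reads in deficient than in WT cells by 1.5-fold or over, and 76 (3.89%) had fewer. Over all 5637 regions the shares were 1.49% and 2.02%. A difference of 2-fold was passed by 12 and 19 domains (0.615% and 0.973%), beside 0.319% and 0.408% of all 5637 regions. In opposite directions in the conditions, 65 domains (3.33%) passed 1.5-fold, beside 1.97% of all 5637 regions. Scaling by total island reads gave, in place of 54 and 76, 40 and 121 domains, and centring on the domains themselves gave 66 and 62. The larger number on the side of fewer reads thus rested on the scaling. Of the 54 domains, 50 were also at least 1.5-fold longer in both conditions and none was 1.5-fold denser. Of the 76, 62 were also at least 1.5-fold shorter and 1 was 1.5-fold less dense. Among the 264 domains with an island of 10 kb or more in every library, 4 had more and 5 had fewer reads by this measure. These were 1.52% and 1.89% of the 264, near the shares over all 5637 regions. The span is a union of the lists, so other domains could reach 10 kb through islands of some libraries only. The ratios of the conditions, which come from separate libraries, correlated weakly over the domains (Pearson r = 0.11, Spearman rho = 0.12). Over the 264 domains they correlated more (r = 0.32, rho = 0.31). With 1 library per group no difference has a replicate check.

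**Figure D4:**
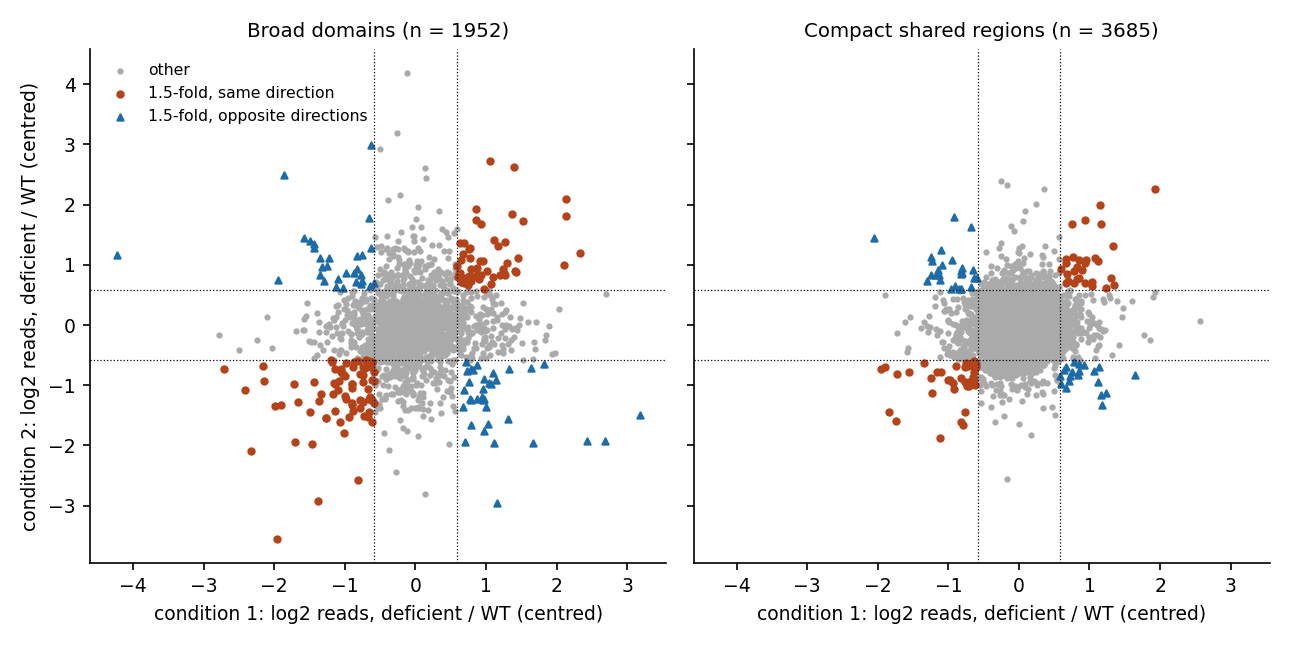
Centred log2 ratio of reads, deficient over WT, in condition 1 (x axis) and condition 2 (y axis), for the broad domains (left) and the compact regions called in all 4 libraries (right), with 1.5-fold dotted. Red points pass 1.5-fold the same way in both conditions (54 with more and 76 with fewer reads among broad domains), blue triangles pass it in opposite directions, and the cloud is wider for broad domains.

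Among the domains with fewer reads in deficient cells, chromosome 1, 167765201 to 167795999, differed in kind from the rest, because its difference was one of density. It held 2709 and 2720 reads in the WT libraries and 518 and 604 in the deficient ones, over similar called lengths of 27598 and 25398 bp versus 22798 and 23996 bp. The island coordinates place the difference in the right part of the domain. There the WT islands, 167786601 to 167795999 and 167786401 to 167792399, contained 2227 and 2150 reads, a density of 237 and 358 per kb. The deficient islands that began in that part, at 167790401 and 167788001, had 48 and 187 reads, a density of 26.7 and 24.6 per kb. In the left part, the single WT islands had 26.5 and 29.4 reads per kb, and the deficient islands 22.4 in condition 1 and between 23.5 and 30.01 in condition 2, where 3 islands covered it. Densities thus lay between 22.4 and 30.01 reads per kb in all islands on the left, while WT and deficient cells were far apart over a stretch of under 10 kb on the right. The whole domain had 5.01-fold (95% interval 4.56 to 5.52) and 4.24-fold (3.89 to 4.64) more reads in WT after centring. These exact Clopper-Pearson intervals, here and below, cover counting error only.

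The other 9 domains named for fewer reads in deficient cells were shorter there. Their densities were from 15.004 to 36.5 reads per kb in deficient and 19.7 to 30.7 in WT cells. Chromosome 8, 114092001 to 114124199, had 471 and 626 reads in the WT libraries and 116 and 50 in the deficient ones, which called 4199 and 2599 bp of it versus 21797 and 30198 bp. This was 3.89-fold (3.17 to 4.81) and 11.8-fold (8.84 to 16.1) more reads in WT, at 21.6 and 20.7 versus 27.6 and 19.2 reads per kb. Chromosome 12, 103846601 to 103894399, was the widest of the set. It held 1134 and 1072 reads versus 386 and 371, a 2.82-fold (2.51 to 3.17) and 2.72-fold (2.42 to 3.07) difference, over 42597 and 41398 bp versus 15597 and 13999 bp. Its 4 densities lay between 24.7 and 26.6 reads per kb. No base of the chromosome 8 domain was called by all 4 libraries, and 4199 bp of the chromosome 12 domain were. In both domains the deficient libraries were far below the WT libraries in reads and length, and in neither was density lower in both.

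Of the rest, chromosome 7, 16580001 to 16599199, had 376 and 337 reads in the WT libraries versus 110 and 83 in the deficient ones, and chromosome 4, 133274401 to 133290999, 208 and 334 versus 72 and 80. Chromosome 1, 39988001 to 40007399, had 284 and 416 versus 73 and 156 reads. On chromosome 14, 61320601 to 61336599 had 376 and 431 versus 114 and 167. Every deficient value in these 4 domains was below both WT values. Chromosome 3, 68583201 to 68594399, had 278 and 276 versus 67 and 102 reads, chromosome 5, 116199001 to 116212999, 114 and 272 versus 42 and 34, and chromosome 15, 80925801 to 80937399, 136 and 235 versus 54 and 76. In these last 3 no base was called by all 4 libraries, and each library had 1 island. A WT library called 100%, 98.6% and 91.4% of the span, in the order given, while some shorter islands did not meet each other.

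The 10 domains named for more reads in deficient cells were all longer there. Chromosome X, 72973801 to 73007799, had 99 and 176 reads in the WT libraries versus 415 and 711 in the deficient ones, a 4.37-fold (3.51 to 5.50) and 4.29-fold (3.63 to 5.08) difference. The WT islands, 72976401 to 72981799 and 72978801 to 72987199, lay in the left part. The deficient libraries called that part too, and had islands reaching beyond it, of 13399 bp with 258 reads and of 28799 bp with 629 reads, at 19.3 and 21.8 reads per kb. The WT islands had 18.3 and 21.0 reads per kb, close to these.

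Chromosome 14, 54780601 to 54797199, had 133 and 57 reads in the WT libraries and 334 and 333 in the deficient ones, over 7199 and 2399 versus 16199 and 15399 bp. Chromosome 5, 134801601 to 134824999, had 130 and 116 versus 323 and 393 reads, or 2.59-fold and 3.59-fold more after centring. It is part of a cluster of 6 domains described below. Chromosome 2 gave 154892601 to 154908799, with 144 and 128 versus 334 and 313 reads, and 165800201 to 165820199, with 56 and 206 versus 271 and 443. In all 4 domains both deficient libraries were above both WT libraries.

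The same held for the remaining 5. Chromosome 18, 36064601 to 36082799, had 181 and 182 reads in the WT libraries versus 390 and 424 in the deficient ones, and chromosome 15, 85996801 to 86009199, 103 and 127 versus 269 and 259. Chromosome 1 gave 90517201 to 90527599 (38 and 61 versus 160 and 202 reads), 54956001 to 54970799 (41 and 79 versus 113 and 246) and 74842801 to 74855999 (109 and 119 versus 226 and 298). Of the 10 domains, 4 had no base called in all 4 libraries, namely those on chromosome 1 from 90517201 and from 54956001, on chromosome 2 from 165800201 and on chromosome 18. The median common part was 17.4% of the span over the 54 domains with more reads and 19.6% over the 76 with fewer, below the 32.1% of all domains.

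By reads per kb, 7 domains (0.359%) were at least 1.5-fold denser and 4 (0.205%) at least 1.5-fold less dense in deficient cells in both conditions. Over all 5637 regions the shares were 0.798% and 0.639%. In all 7 denser domains the deficient libraries had called a shorter part and held fewer reads than the WT library of the same condition. Chromosome 10, 5951401 to 5963599, for example, had 24.6 and 26.5 reads per kb over 9199 and 9199 bp in WT, and 53.8 and 43.2 reads per kb over 3199 and 3799 bp in deficient cells. Chromosome 15, 98486401 to 98496599, had 23.9 and 23.6 versus 55.03 and 38.8 reads per kb. Besides the chromosome 1 domain with the strong right part, the 3 less dense domains were called over a longer part in deficient cells. Those 3 held more reads there in both conditions. An example is chromosome 14, 51700801 to 51714999, with 47.7 and 47.7 reads per kb over 5999 and 4799 bp in WT and 31.5 and 31.2 over 10397 and 10998 bp in deficient cells. These 3 examples were chosen after their values were seen. The chromosome 1 domain was the only one of the 11 whose called length differed by less than 1.5-fold in both conditions.

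Broad domains were unevenly spread over the chromosomes. Chromosome 11 had 243 of them, or 12.4%, beside 7.76% of the compact regions, and there 45.9% (Wilson 95% interval 41.7 to 50.2) of the regions called in all 4 libraries were broad. Chromosomes 15, 17 and 8 followed with 43.8%, 42.6% and 41.6%. The lowest shares were on chromosomes 18 (21.4%), 13 (21.1%) and X, where 10 of 77 regions were broad, or 13.0% (7.21 to 22.3). The overall share was 34.6%. The intervals of chromosomes 7, 8, 11, 15 and 17 lay above this share and those of chromosomes 1, 3, 13, 14, 16, 18 and X below it. The intervals take neighbouring regions as independent, which they are not, and no test was made.

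**Figure D5:**
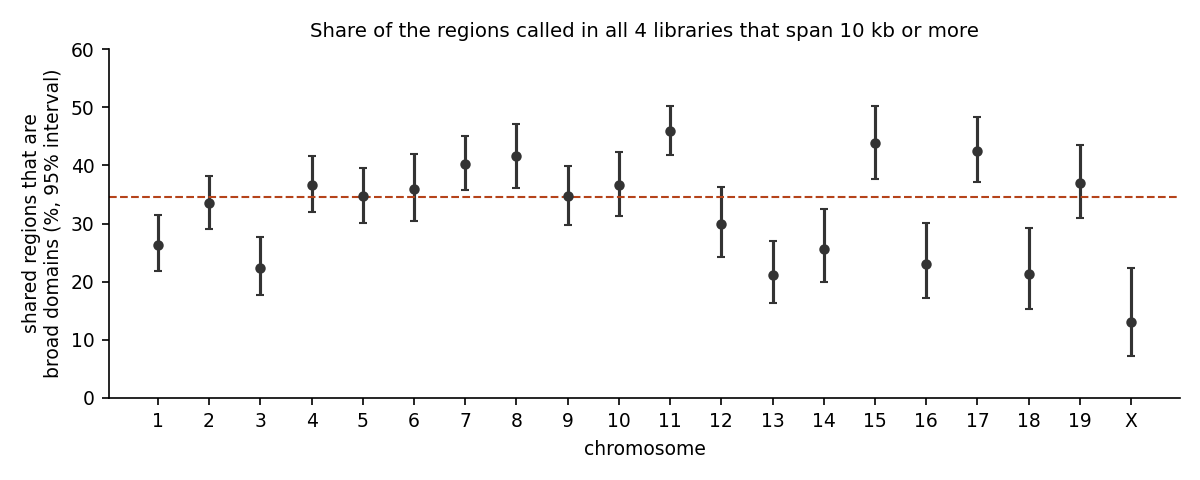
Share of the regions called in all 4 libraries that span 10 kb or more, by chromosome, with Wilson 95% intervals, and the share over all chromosomes dashed (34.6%). Chromosome 11 lies highest (45.9%) and chromosome X lowest (13.0%).

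The shares of close neighbours among the domains were near those among all regions called in all 4 libraries, a more numerous set. The median distance to the next region was 134.7 kb for domains, 87.2 kb for all 5637 regions and 193.4 kb for compact regions. Because the sets differ in number, like shares do not mean like clustering. Of 1932 neighbouring pairs on a chromosome, 250 (12.9%) were within 10 kb and 648 (33.5%) within 50 kb. Over all 5637 regions the shares were 12.5% and 37.7%, and over the compact regions alone 4.86% and 21.5%. By joining domains within 50 kb, 1030 domains (52.8%) fell into 382 clusters of 2 or more, and 27 clusters held 5 or more.

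The largest cluster, on chromosome 8 from 73023201 to 73424399, had 11 domains that filled 207 of 401 kb, with 4732 and 4648 reads in the WT libraries and 5103 and 5315 in the deficient ones. The next, on chromosome 9 from 20932001 to 21236599, had 10 domains in 305 kb, with 3201 and 3038 versus 2497 and 3413 reads. Clusters of 8 lay on chromosome 10, 80741401 to 81072999, chromosome 17, 35859801 to 36181999, and chromosome 7, 134153401 to 134435399. Their reads were 4256 and 3613 versus 4248 and 4430, 4225 and 4149 versus 3786 and 4052, and 3821 and 3604 versus 3783 and 3857. In the first cluster both deficient libraries were above both WT libraries, in the chromosome 17 cluster they were below, and in the other 3 the genotypes overlapped. The 6 domains of chromosome 5, 134648201 to 134865199, had 2498 and 2164 reads in the WT libraries and 2318 and 2470 in the deficient ones, although one of them, named above, held more reads in both deficient libraries.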

How the data were processed

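mSin3A ChIP-seq of sorted splenic CD8 T cells gave 4 island lists, 1 per genotype and condition. FastQC, Bowtie2 2.2.5 and SICER 1.1 on mm9 were used, per the submitters' processing notes. SICER's window, gap and false discovery settings, and its use of the inputs, were not given in the sources used here. Each list gives an island's position and, in a last column with no heading, a whole number that the authors deposited, taken here as the island's read count, unscaled for depth or width. Island starts lay on multiples of 200 bp. For positions 1 was added to deposited starts, and widths are end minus start. Island reads (1792952 to 1917097 per library) are the only measure of depth, and intervals cover counting error only.

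Islands were merged, and domains chosen, as the report states. The calculations used Python 3.11.15, numpy 2.4.6, pandas 2.3.3 and scipy 1.17.1, and the functions were tested on simulated lists. No group test was run, since each group holds 1 library and the rule used these calls, and nothing says that libraries came from separate animals. Named domains were the 10 widest, the 10 densest by their lowest library, the 10 past 1.5-fold in each direction by the smaller ratio, the 5 with most bases in common, the 5 widest of 1 island, the one in most pieces and 3 on each side of 10 kb. Domains split in 1 genotype were added after the data were seen. Members, lists and rules were chosen with earlier results of these data known. The gene lists could not be used without an annotation of the files' build.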

Additional observations from a re-analysis of the deposited data

Results flagged for a closer look

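Reads moved in opposite directions in the conditions in 65 domains. In 35 domains deficient cells held at least 1.5-fold more reads than WT cells in condition 1 and at least 1.5-fold fewer in condition 2, and in 30 domains the reverse was seen. These 65 (3.33%, beside 1.97% of all 5637 regions called in all 4 libraries) compare with 130 domains that passed 1.5-fold in the same direction. The difference between the conditions was not tested for any domain. The clearest were chromosome 18, 21103401 to 21117599, with centred log2 ratios of 2.43 and -1.93, chromosome 19, 10854401 to 10866799, with 2.68 and -1.93, and chromosome 11, 49789801 to 49801399, with -1.86 and 2.50. In each, 1 WT library had a very small island. On chromosome 18 WT held 20 and 303 reads over 399 and 14199 bp, against 103 and 75 reads in deficient cells. On chromosome 19 WT held 34 and 319 reads, against 209 and 79, and on chromosome 11 it held 228 and 31, against 60 and 165. The WT libraries therefore lay farther apart than the deficient ones in these 3 domains.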

How the results depend on the processing

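The number of domains, 1952, was 1010 with a span of at least 15 kb and 324 when 10 kb had to be called in all 4 libraries. It stayed within 1.5 times the reported number under the other 5 choices of joining, span, list or chromosomes, and lay between 1786 and 1849 when any library was left out. Domains with more and with fewer reads in deficient cells, 54 and 76, were 12 and 19 at 2-fold (background 0.319% and 0.408%), 7 and 4 by reads per kb, and 4 and 5 among domains with an island of 10 kb or more in every library. Scaling by total island reads gave 121 domains with fewer reads and moved the median log2 ratios from -0.05 and -0.03 to -0.14 and -0.22. By reads per kb the median in condition 1 was -0.0089. With each library's islands first joined within 2 kb, the rule gave a different set of 2121 domains. Of these, 144 were in more islands in deficient cells and 28 in more islands in WT, in place of 213 and 47. Domains with a wide island in both WT libraries alone numbered 89, as reported. Those with one in both deficient libraries alone numbered 59 in place of 28. The cause of these changes was not tested, apart from those that follow from a smaller set or a larger fold. Median called shares of the span were 61.1% to 74.4% with islands of at least 1 kb or the upper 50% of each list, beside 61.8% to 73.5% as reported. The joining of each library, the set with wide islands and the lists of equal length were chosen after the data were seen. Alternatives that need gene starts or gene lists were not run, and domains of low depth could not be set against an input. Ratios were taken within each condition, but no paired test was run, with 1 library per genotype and condition. A fit with genotype and condition as additive terms, which would leave 1 residual degree of freedom, was not run.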

Other observations

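Over the 1952 domains, log2 reads correlated best between the deficient libraries (Pearson r = 0.82). The WT libraries correlated with each other at 0.71 and with deficient libraries at 0.71 to 0.76. For called length the values were 0.66 for the deficient pair, 0.51 for the WT pair and 0.52 to 0.60 across genotypes. For density they were 0.60, 0.50 and 0.48 to 0.53, and without the 3 densest domains 0.56, 0.46 and 0.43 to 0.49. Domains share libraries and are not replicates, so these values are descriptions. Of all 2692 merged regions that spanned 10 kb or more, 416 were called in 3 libraries, 258 in 2 and 66 in 1. The remaining 72.5% were called in all 4 libraries. Islands of 10 kb or more in the single lists lay mostly in the broad domains, at 81.0% and 86.8% for WT and 86.1% and 84.3% for deficient cells. These shares partly follow from the rule. Such an island meets the span limit by itself, which leaves only the call in all 4 libraries to pass.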
